A study of Mus musculus with 71 samples.

Results

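Interferon regulatory factors (IRFs) are transcription factors that share a DNA-binding domain and control interferon genes and the genes that interferons induce. The 8 members examined here, Irf1, Irf2, Irf3, Irf4, Irf5, Irf7, Irf8 and Irf9, were chosen by gene symbol, and all 8 were among the 10508 genes of the normalized expression table. Values were compared over the 6 labelled groups of a mouse model of systemic sclerosis (SSc), in whole blood taken at euthanasia.

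The animals were female Balb/c AnNRj mice, 6 weeks old at the start. Control mice (n = 11) received PBS, and HOCl mice (n = 12) received intradermal bleach in phosphate buffer on 5 days per week for 6 weeks, which induces skin and lung fibrosis. HOCl-injected mice labelled E07 or D11 (n = 12 each) were also given a blocking monoclonal antibody (mAb) against galectin-3 under the skin. A further 12 mice each are labelled HOCl with D06 or with BPR21, names that the study's text does not explain, and these groups are named here by their labels only. Control and experimental mice were kept in separate cages, so cage and group cannot be told apart. The genotype label reads HOCL for all 71 mice, control mice included, and the groups were taken from the sample titles.

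Libraries were made with selection of poly A RNA and depletion of globin RNA. Shares of all counts therefore describe the RNA left after these steps. Gene counts summed to a median of 13719277 reads in a mouse, with totals from 11932855 to 15948972. Expression is given as the vst value, a log2-like value that the authors made with DESeq2 from counts scaled by size factors. The vst table lacks HOCl mouse 8, so n = 11 for HOCl mice on the vst scale and n = 12 on counts. That mouse had an Irf7 level of 599 CPM (counts scaled to the total count of the mouse), within the 477 to 1293 of the other HOCl mice. Of the 8 members, Irf4 alone lay outside the other HOCl mice there, at 21.5 CPM against 7.34 to 18.9. Of the erythroid, B cell, T cell, monocyte and neutrophil marker lists, no gene had a median of 0 counts in any group, as blood should show. The NK cell, eosinophil and conventional dendritic cell lists each had 1 gene at a median of 0 in every group. The plasmacytoid dendritic cell list had 1 such gene in HOCl and in D06 mice. In whole blood, fewer cells of a type and less RNA per cell cannot be told apart.

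In the pathway, receptors for foreign nucleic acids activate IRF3, IRF5 and IRF7, which switch on type I interferon genes. Secreted interferon then acts through its receptor on a complex that holds IRF9 and binds a DNA element called ISRE in front of many target genes, Irf7 among them. IRF1 is induced by interferon gamma through another element, GAS, and IRF2 competes with IRF1 for its sites. IRF4 and IRF8 act mainly in the formation of blood cells, IRF4 in B and plasma cells, and IRF8 in monocytes, dendritic cells and B cells.

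The annotation places Irf7 on the minus strand of chr7:140842619-140846398 (GRCm39, GENCODE vM39) and it shares 63 bases with Phrf1 on the other strand. Irf3 lies on the plus strand of the same chromosome (chr7:44647033-44652272). Irf2 (chr8:47192222-47300501) and Irf8 (chr8:121463096-121485659) share chromosome 8. Irf1 (chr11:53660812-53669200), Irf4 (chr13:30933209-30950959), Irf5 (chr6:29526276-29541870) and Irf9 (chr14:55841028-55847812) lie apart from the others, all on the plus strand. Of these, Irf1, Irf2, Irf3 and Irf5 share bases with genes of the opposite strand, and Irf9 shares 282 bases with Rnf31 on its own strand. The libraries kept the strand, but the strand setting of the counting is not given in the sources used here, so reads from shared bases are uncertain.

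Promoter sequences of all 8 members were found in the RefSeq table, as 11 windows from 250 before to 50 after a start site. They are tabulated on GRCm38.p6, and each matched GRCm39 exactly at 1 place, whose coordinates are given. Both strands were searched for an ISRE core (GAAANNGAAA) and for GAS (TTCNNNGAA). Of all 32851 windows, 3.44% held the ISRE core and 8.3% held GAS. Among the members, 1 (Irf2) held an ISRE core and 3 (Irf1, Irf2 and Irf8) held GAS. Irf7 is shown because its level differed most between the groups, and Isg15, a ubiquitin-like protein induced by interferon, because its level was closest to that of Irf7 across mice. The stretch for Irf7 holds the 250 bases before its start (chr7:140846338-140846587, minus strand) and neither motif, and it reaches into the GENCODE gene model. The lack of a match says only that these letters are not in this window. Capitals mark an ISRE core in Isg15 and Irf2 and GAS in Irf1 and Irf8. The stretch of Irf2 also holds its GAS match, left in lower case, and lies within the GENCODE gene model. The 3 matches in Isg15 overlap each other.
Irf7: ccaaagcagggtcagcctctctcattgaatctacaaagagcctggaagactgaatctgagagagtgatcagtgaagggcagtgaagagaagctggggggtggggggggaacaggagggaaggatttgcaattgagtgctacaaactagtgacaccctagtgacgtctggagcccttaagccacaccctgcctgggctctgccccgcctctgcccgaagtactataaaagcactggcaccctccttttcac
Isg15 (chr4:156285312-156285373, minus strand): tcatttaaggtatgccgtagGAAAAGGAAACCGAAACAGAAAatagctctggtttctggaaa
Irf2 (chr8:47192530-47192568, plus strand): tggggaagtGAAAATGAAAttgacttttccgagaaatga
Irf1 (chr11:53660731-53660779, plus strand): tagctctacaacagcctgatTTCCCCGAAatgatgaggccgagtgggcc
Irf8 (chr8:121462906-121462972, plus strand): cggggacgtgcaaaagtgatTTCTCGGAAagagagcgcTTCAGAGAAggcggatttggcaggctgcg

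Levels of different genes were compared per length, as counts divided by the length of the annotated exons and by the total count of the mouse (RPKM). On this scale, Irf7 had the highest level of the 8 members in all 71 mice. Its level ranged from 83.0 to 348 (median 191), between 3.25 and 44.1 times that of the next member in the same mouse. Irf1 (median 18.9), Irf3 (16.7), Irf9 (11.9) and Irf5 (9.14) followed. Irf8 (6.22), Irf2 (4.53) and Irf4 (3.40) were the lowest, and Irf4 was the lowest of all in 58 mice. This order rests on the exons of GENCODE vM39, which may not be those the authors counted.

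**Figure D1:**
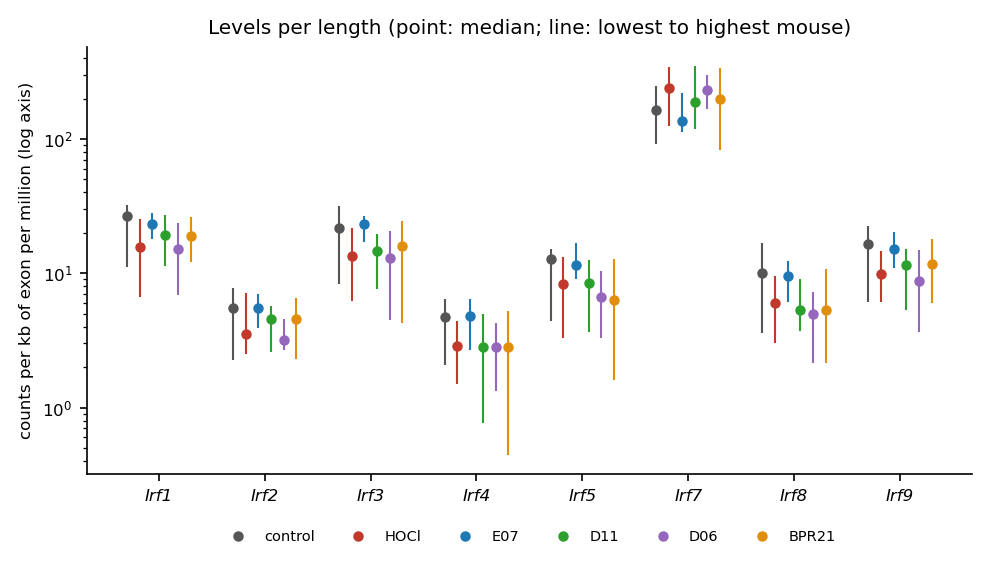
Level of each IRF gene per length, as RPKM on a log axis. Points are group medians and lines run from the lowest to the highest mouse. Irf7 lies above every other member in all 6 groups, with a median over 71 mice of 191.

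The question for Irf7 was whether its level in blood changed with HOCl and with each treatment. Irf7 was higher in HOCl than in control mice and lower in E07 than in HOCl mice, by about as much. The vst values of Irf7 in control mice ran from 11.84 to 14.03 with a median of 12.64. Those of HOCl mice ran from 12.35 to 14.92 with a median of 13.82. The groups overlapped, with 10 of 11 HOCl mice above the control median and 3 above every control mouse. The means were 13.73 ± 0.74 (SD, n = 11) and 12.69 ± 0.68 (n = 11), a log2 difference of 1.04 (95% interval 0.49 to 1.59), or 2.06-fold. The limma p-value, adjusted over all genes by Benjamini-Hochberg to a false discovery rate (FDR), was 0.0196.

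A gene was called where its FDR did not exceed 0.05 and its fold change reached 1.3. Irf7 was the 1 member of 8 called between HOCl and control mice, where 4.96% of all genes were called. On counts, edgeR gave a log2 difference of 0.97 (FDR 0.0279) for Irf7. The 7 other members differed by between -0.18 (Irf3, FDR 0.263) and 0.02 (Irf2, FDR 0.950). At an unadjusted p under 0.05, limma found 2 of the 8 members and 17.9% of all genes.

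In E07 mice the vst values of Irf7 ran from 12.11 to 13.47 with a median of 12.47. All 12 were below the HOCl median, and 4 were below every HOCl mouse. The mean was 12.56 ± 0.40 (SD, n = 12). Compared with HOCl mice, Irf7 fell by 1.17 on the log2 scale (95% interval -1.62 to -0.72, limma FDR 0.000567), or 2.26-fold. Again 1 of 8 members was called, with 7.89% of all genes called. Limma found 2 of 8 members and 28.5% of all genes at an unadjusted p under 0.05. Irf3, which encodes the constitutive partner of IRF7 in the induction of interferon genes, had a log2 difference of 0.21 and an FDR of 0.0487, below the minimum fold change. E07 and control mice differed in Irf7 by -0.14 (95% interval -0.56 to 0.29, limma FDR 0.949). No member was called in that pair by limma or edgeR, or at an unadjusted p under 0.05, with 0.00952% of genes called. At an unadjusted p under 0.05, limma found 7.6% of all genes there.

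With the other treatments, no difference of Irf7 from HOCl mice passed the test. In D11 mice the values ran from 12.28 to 14.26 (median 13.39), and the difference was -0.36 (95% interval -0.91 to 0.18, limma FDR 0.554). In BPR21 mice they ran from 11.64 to 15.00 (median 13.41), the widest range of the 6 groups, with a difference of -0.43 (95% interval -1.07 to 0.21, limma FDR 0.570). In D06 mice they ran from 12.96 to 15.18 (median 13.80), with a difference of 0.08 (95% interval -0.41 to 0.57, limma FDR 0.918). Each of these intervals reaches past a 1.3-fold change, as far as -1.07 on the log2 scale for BPR21 mice. Changes larger than 1.3-fold thus remain possible. No member was called in these 3 comparisons by limma or edgeR. At an unadjusted p under 0.05, limma found 0, 0 and 1 members for D11, D06 and BPR21, with 14.1%, 12.7% and 14% of all genes. At that level edgeR found 0, 1 and 2 members. Its share of all genes at that level is not given here, so these counts cannot be judged against it. At both thresholds edgeR called 28, 13 and 71 of 15211 genes. Limma called 0.0571% of all genes for D11, 0.133% for D06 and 0.638% for BPR21.

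**Figure D2:**
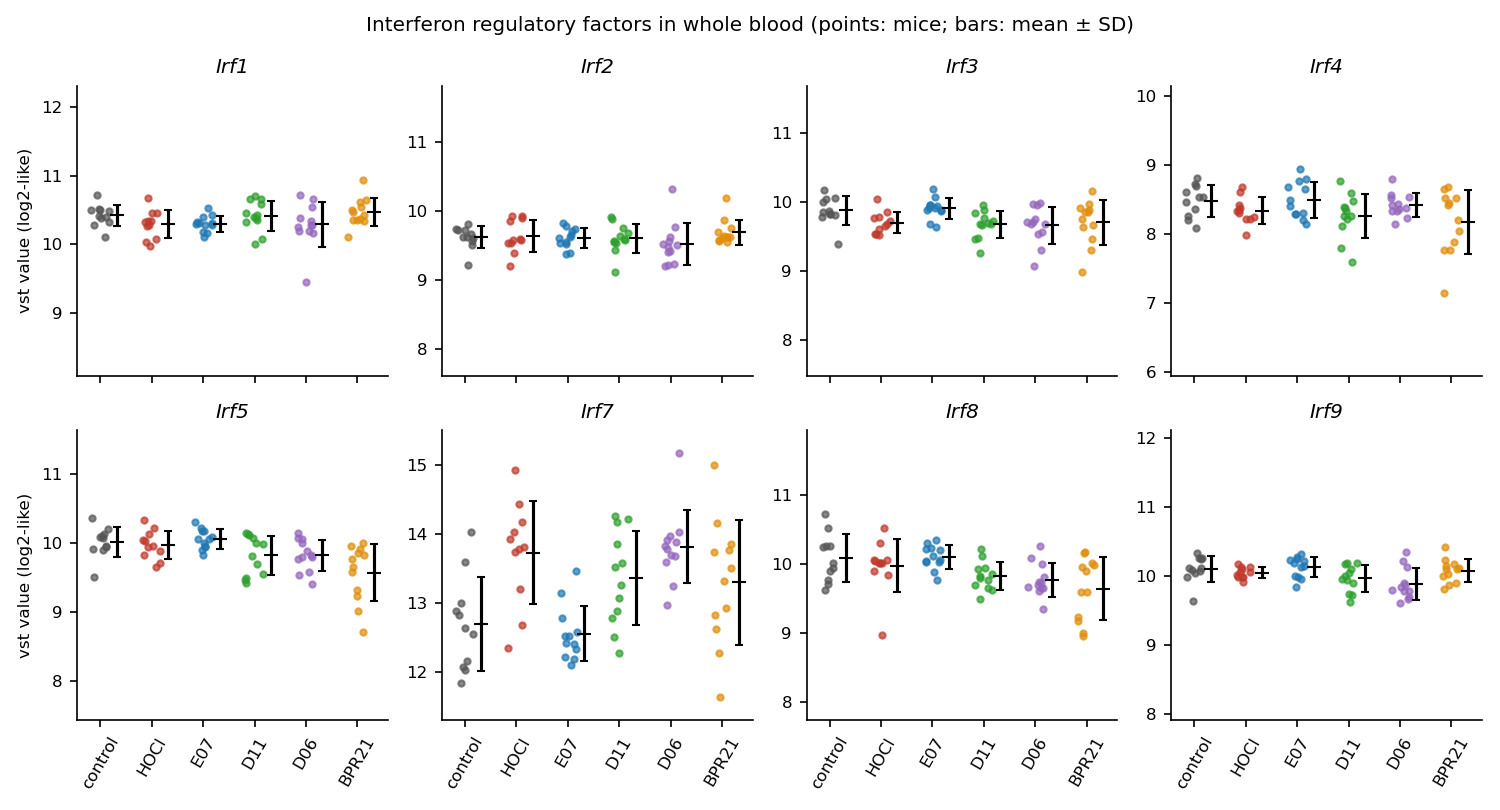
The vst value (log2-like) of each IRF gene in every mouse with vst values, by group, with the mean ± SD beside the points. All panels span the same height. Irf7 shows the widest spread between mice, and its group means run from 12.56 in E07 to 13.81 in D06 mice.

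**Figure D3:**
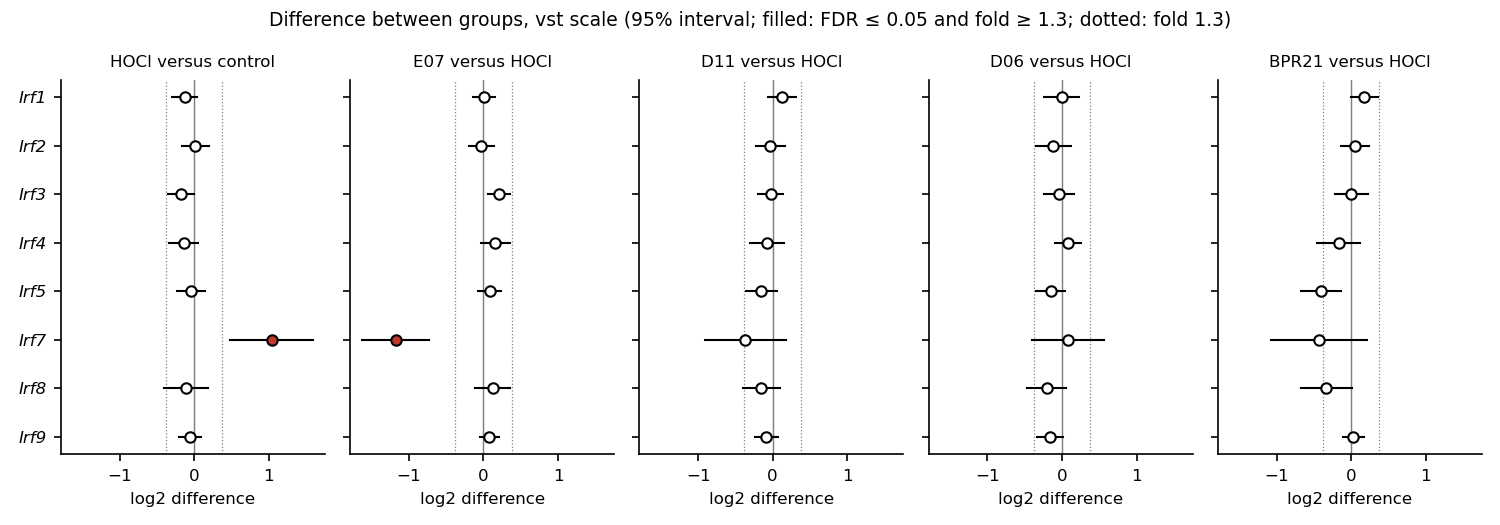
Log2 difference in vst value for 8 IRF genes in 5 comparisons, with 95% intervals. Filled points passed both thresholds, and dotted lines mark a fold change of 1.3. Irf7 is the filled point in HOCl versus control (1.04) and in E07 versus HOCl (-1.17), and no other point is filled.

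By mean, the groups were ordered for Irf7 as D06, HOCl, D11, BPR21, control and E07, and no neighbours in this order passed the test (limma FDR of at least 0.262). Of the pairs farther apart, D06 and control mice differed by 1.12 (limma FDR 0.00201), the 1 member of 8 called there, with 7.88% of all genes called. All 12 D06 mice were above the control median. E07 mice were below D11 mice by 0.81 on the log2 scale (-0.81, limma FDR 0.0232), where 1 of 8 members and 4.57% of genes were called. The call between E07 and D11 mice was lost in a fit of all 6 groups (FDR 0.0931), which called 0 of 10508 genes in that pair. E07 mice were below D06 mice by more (-1.26, limma FDR 3.36e-05), with 10 of 12 E07 mice below every D06 mouse. There 1 of 8 members and 9.76% of genes were called. Against BPR21 mice the difference was -0.75, which limma did not call (FDR 0.0592) and edgeR called (-0.91, FDR 0.0261). These comparisons share groups and are not independent. A direct comparison of D11 with D06, D11 with BPR21 or D06 with BPR21 called none of the 8 members with limma or edgeR, with 0%, 0% and 0.0571% of genes called. For these, limma found 0, 0 and 1 members at an unadjusted p under 0.05, with 6.23%, 5.91% and 8.94% of all genes. No member was called between D11 and control (0.0761% of genes) or BPR21 and control mice (0.504%) by either tool. At an unadjusted p under 0.05, limma found 3 members in each pair, with 16.1% and 19.9% of all genes. At that level it found the most in E07 against D11 mice, 6 of 8, with 20.9% of all genes. E07 against D06 and E07 against BPR21 mice had 5 each (27.8% and 26.7% of genes), and D06 against control mice 4 (23.2%).

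The level of Irf7 moved with that of erythroid genes. The 34 measured markers of red cell precursors, such as the anion exchanger gene Slc4a1 and the haem synthesis gene Alas2, were summarised as the erythroid score, the mean z-scored vst value in a mouse. Between HOCl and control mice, 29 of the 34 were called higher (median log2 difference 1.19, all genes -0.02). Between E07 and HOCl mice, 31 were called lower (median -1.14, all genes 0.02). They took 3.79% to 12.8% of all counts in control, 9.10% to 20.1% in HOCl and 5.75% to 11.1% in E07 mice, and none was at 0 counts in all mice. Of other cell types, 6 of 13 platelet and 3 of 15 neutrophil markers were called higher in HOCl mice, and 11 and 3 were called lower in E07 than in HOCl mice. In E07 against HOCl mice, 3 of 17 monocyte markers were called lower, and 10 of 14 B cell, 2 of 8 eosinophil, 1 of 10 plasmacytoid and 1 of 5 conventional dendritic cell markers were called higher, with 0 of each called between HOCl and control mice. The conventional one was H2-DMb2 (0.44), while Clec10a (-0.35), Cd209a (-0.30), Clec9a (-0.26) and Itgax (-0.02) were lower and not called. The plasmacytoid one was Ly6d (0.48), with the rest between -0.16 (Klk1) and 0.26 (Spib). Of 7 plasma cell markers, 1 was called lower in HOCl and higher in E07 mice. T cell and NK cell markers had 0 called in both comparisons. All these calls were made on vst values. As mean shares of all counts in control, HOCl and E07 mice, monocyte markers took 0.603%, 0.412% and 0.458%. Neutrophil markers took 0.634%, 0.533% and 0.580%. Monocyte shares in E07 mice and neutrophil shares in both comparisons thus moved opposite to the calls. T cell markers took 0.305%, 0.202% and 0.292%, B cell markers 0.215%, 0.141% and 0.272%, and platelet markers 0.495%, 0.537% and 0.509%. Within the control group, Irf7 and the score had Pearson's r of 0.88 (Spearman's rho 0.89). The r was 0.94 (rho 0.95) in HOCl, 0.77 (0.82) in E07, 0.87 (0.83) in D11, 0.96 (0.64) in D06 and 0.99 (0.99) in BPR21 mice. These 6 were among 30 relations, chosen after the values were seen. Their permutation p (100000 resamples, two-sided), adjusted by Benjamini-Hochberg over the 30, was at most 0.00656 for r, whereas for rho it was 0.0882 in D06 mice and at most 0.00965 in the others. Without the 2 mice farthest from the median score, r ran from 0.50 (E07) to 0.96 (BPR21).

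With the erythroid score as a covariate in limma, the difference of Irf7 between HOCl and control mice was -0.18 (FDR 0.657) and that between E07 and HOCl mice was -0.04 (FDR 0.940). That fit called 1 gene of 10508 in the first comparison and 0 in the second. The first principal component of all genes held 26.2% of the variance, with |r| of 0.97 to the erythroid score and 0.94 to Irf7 over 70 mice. The part of the erythroid genes in the result for Irf7 was not tested.

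**Figure D4:**
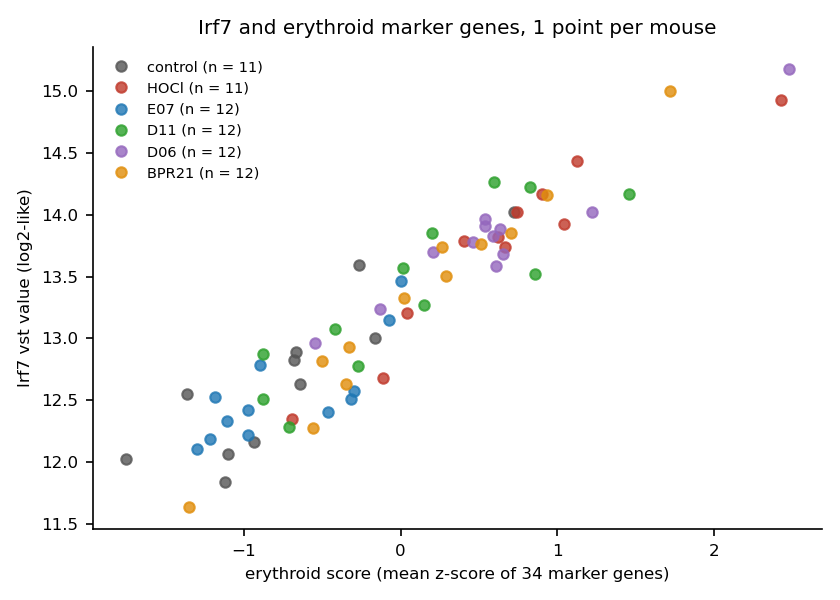
Irf7 vst value (log2-like) against the erythroid score (mean z-score of 34 marker genes), 1 point per mouse and 1 colour per group. Mice of all 6 groups lie along one band, and r within the groups ran from 0.77 to 0.99.

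The scale mattered for the other members. With counts divided by each mouse's total (log2 of CPM plus 1), the median of all genes shifted by -0.47 between HOCl and control and by 0.49 between E07 and HOCl mice. Irf7 kept its directions on this scale, at 0.57 (limma FDR 0.0204) and -0.68 (FDR 0.00130). Each of the 7 others then came out lower in HOCl than in control mice and higher in E07 than in HOCl mice, and was called, which turned the direction of Irf2 in both comparisons. On this scale 5132 of 10501 genes were called lower in HOCl than in control mice and 6558 higher in E07 than in HOCl mice, so these calls are not particular to the members. Relative to the median of all genes, those 7 differed by between -0.21 and 0.01 in HOCl and between -0.02 and 0.24 in E07 mice, whereas Irf7 differed by 1.04 and -1.18.

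Irf5, which encodes a factor of inflammatory cytokine induction, had its lowest mean in BPR21 mice. The vst values there ran from 8.71 to 9.99 (median 9.70), against 9.65 to 10.33 (median 9.95) in HOCl and 9.82 to 10.30 (median 10.05) in E07 mice. All 12 E07 mice were above the BPR21 median and 7 were above every BPR21 mouse. The difference of E07 from BPR21 mice was 0.49 (95% interval 0.24 to 0.73, limma FDR 0.0175). Irf8 also was higher in E07 than in BPR21 mice, by 0.46 (95% interval 0.19 to 0.73, limma FDR 0.0288). Its values ran from 9.77 to 10.35 (median 10.09) in E07 and from 8.96 to 10.17 (median 9.75) in BPR21 mice. Thus 2 of 8 members were called between E07 and BPR21 mice, with 7.26% of all genes called. The call for Irf8 was lost without BPR21 mouse 9 (FDR 0.0522) or without BPR21 mouse 11 (FDR 0.0535).

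Markers of B cells stood apart in some of the same mice. The B cell score, made like the erythroid score from 14 genes such as Ms4a1, ran from -3.20 to 0.88 in BPR21 mice and from 0.08 to 1.45 in E07 mice. Mice 7, 10, 11 and 12 of the BPR21 group had scores of -1.94, -1.80, -3.20 and -2.43, each below every mouse of the other groups (lowest -1.51). Between E07 and BPR21 mice, 12 of the 14 B cell markers (median 0.64) and 5 of 17 monocyte markers (median 0.22) were called higher, with a median of 0.01 over all genes. None of the B cell markers had a median of 0 counts in any group, and they took 0.174% to 0.365% of all counts in E07 and 0.0315% to 0.289% in BPR21 mice. Without those 4 mice, Irf5 differed by 0.28 (limma FDR 0.0912) and Irf8 by 0.28 (FDR 0.201), neither was called, and 0.105% of genes were called. The part of the B cells in these differences was not tested.

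Irf4, the B and plasma cell factor, was not called in any of the 15 pairs of groups by limma or edgeR. Its values ran from 8.09 to 8.81 (median 8.54) in control and from 7.99 to 8.68 (median 8.34) in the 11 HOCl mice with vst values, without HOCl mouse 8, whose CPM was the highest of the HOCl group. In BPR21 mice they ran from 7.15 to 8.68 (median 8.32), with 4 mice below every HOCl mouse. Within BPR21 mice, r of Irf4 with the B cell score was 0.96 (rho 0.90, adjusted permutation p = 0.000200 for r), and 0.93 without the 2 mice farthest from the median score. In the other groups r lay between -0.17 and 0.60, with adjusted permutation p of at least 0.120. For Irf8 and the B cell score, r ran from 0.46 (D06) to 0.78 (BPR21), and the adjusted permutation p for r passed in 2 of 6 groups (0.0220 in D11 and 0.0145 in BPR21 mice). Irf5 with the same score passed in 1 of 6 groups (BPR21, r 0.76). Irf8 with the score of monocyte markers had r between -0.11 and 0.45 and passed in 0 of 6.

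Irf1, the factor induced by interferon gamma, had medians between 10.28 (D06) and 10.45 (BPR21) over the 6 groups. Irf2, its competitor, had medians between 9.50 (D06) and 9.63. Irf3 had medians between 9.68 (HOCl) and 9.92 (E07), and 10 of 12 E07 mice were above the HOCl median. Irf9, the DNA-binding part of the interferon-activated complex, had medians between 9.83 (D06) and 10.17 (E07). None of these 4 was called in any of the 15 pairs by limma. Irf9 (0.24, FDR 0.0481) and Irf8 (0.33, FDR 0.00949) in E07 against D06 mice, and Irf8 in E07 against D11 mice (0.28, FDR 0.0382), passed the FDR with limma but not the minimum fold change. With edgeR, Irf8 was called in E07 against D06 mice (0.42, FDR 0.00493).

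The other genes of the pathway were taken from lists. Of 25 measured upstream sensors and adaptors, among them the endosomal receptor Tlr7 and the signalling protein Mavs, 0 were called by limma in HOCl against control mice and 0 in E07 against HOCl mice, with medians of 0.00 and -0.08. Of 18 genes of interferon receptors and JAK-STAT signalling, 1 was called higher in HOCl mice and 2 lower in E07 mice. Ifnar2, a chain of the type I interferon receptor, was 10.31 ± 0.56 (SD, n = 11) in HOCl, 9.72 ± 0.27 (n = 11) in control and 9.66 ± 0.22 (n = 12) in E07 mice. It differed by 0.59 (FDR 0.0407) and -0.65 (FDR 0.00611). Usp18, which removes ISG15 from proteins and dampens the receptor, was lower in E07 than in HOCl mice (-0.74, limma FDR 0.0133). Of 20 interferon genes, Ifng alone was among the vst values, and it was not called in either comparison (0.12 and 0.08). The other 19, all type I and type III genes, had at most 12 counts each, summed over all 71 mice.

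Of 46 measured type I interferon targets, 6 were called higher in HOCl than in control mice and 0 lower, with a median difference of 0.09 against -0.02 for all genes. Those with the largest differences were Rsad2, whose product viperin inhibits viruses (1.59, limma FDR 0.00497), Isg15 (1.49, FDR 0.00606), the exonuclease gene Isg20 (1.19, FDR 0.0237) and Oas3 (1.09, FDR 0.00511), which makes an activator of RNase L. In E07 against HOCl mice, 10 were called lower and 0 higher, with a median of -0.15 against 0.02. The 4 genes above had the largest decreases there too, at -1.37 (Rsad2), -1.46 (Isg15), -1.28 (Isg20) and -1.27 (Oas3). The remaining 40 targets were not called in HOCl mice. BPR21 mice had 2 targets called lower than in HOCl mice, and D11 and D06 mice 0. The erythroid markers, with their values above, moved in the same comparisons.

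Of 28 measured targets of IRF1 and interferon gamma, Igtp, an immunity-related GTPase gene, was called higher in HOCl mice (0.48, limma FDR 0.0314) and lower in E07 mice (-0.47, FDR 0.00105). The medians of this list were -0.02 and 0.04. None of 20 measured IRF binding partners was called by limma in either comparison (medians -0.05 and 0.01). Of 17 lineage genes of IRF4 and IRF8, 0 were called in HOCl against control mice. In E07 against HOCl mice, Id3, an inhibitor of E proteins in lymphocytes, was higher (0.64, limma FDR 0.000574). Csf1r, the receptor gene of macrophage colony-stimulating factor (-0.50, FDR 0.0204), Cebpb (-0.48, FDR 0.0292) and Cebpa (-0.47, FDR 0.0121), which encode myeloid transcription factors, were lower. Csf1r is also one of the 3 monocyte markers called lower there, with F13a1 (-0.88, FDR 0.000171) and Cd14 (-0.59, FDR 0.0127), and the monocyte list had a median of -0.27. As a mean share of all counts, however, monocyte markers took 0.412% in HOCl and 0.458% in E07 mice. The part of the monocytes in the differences of these lineage genes was not tested.

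Likeness to each member was measured as Pearson's r over 70 mice after each group's mean was subtracted, as a description. Values of a mouse come from 1 library and share its scaling. Closest to Irf7 were Isg15 (r 0.95), Rnf114 (0.94), Fam214b (0.92), Dnajb2 (0.91) and Ppp1r15a (0.91). On log2 CPM these were 0.88, 0.70, 0.78, 0.78 and 0.78. Of all 10507 other genes, 330 had r over 0.8 with Irf7, and 21 of the 34 erythroid markers were among them. The 46 type I targets had r with Irf7 between -0.23 (Mx1) and 0.95 (Isg15), with a median of 0.21 (all genes -0.07), and 6 were over 0.8. These 6 were Isg15, Isg20, Ifit1, Oas3, Rsad2 and Ifi27, and 5 of them, all but Ifit1, were among the 6 called higher in HOCl mice.

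Irf9 had another set of close genes. The highest were Oas2 (r 0.61) and Oasl1 (0.55), both type I targets and members of the oligoadenylate synthetase family. The 6 targets over 0.8 with Irf7 had r between -0.20 (Isg20) and 0.04 (Ifit1) with Irf9, and Oas2 and Oasl1 had 0.26 and 0.14 with Irf7. On log2 CPM, the same 6 had r between -0.76 (Isg20) and -0.12 (Ifit1) with Irf9. Irf7 and Irf9 themselves had r of -0.05. Closest to Irf8 were the B cell genes Cd22 (0.73) and Cd180 (0.71), and to Irf4 the immunoglobulin gene Ighm (0.63) and Ifi30 (0.62). For Irf5 they were Unc93b1, which carries endosomal Toll-like receptors (0.72), and Sh3bp2 (0.70). For Irf1 they were Mob3a (0.62) and Lcp2 (0.59), for Irf2 Acin1 (0.62) and Msn (0.61), and for Irf3 Fam98c (0.66) and Ctcf (0.62). Among the members, r was highest between Irf3 and Irf5 (0.47) and lowest between Irf5 and Irf7 (-0.45).

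**Figure D5:**
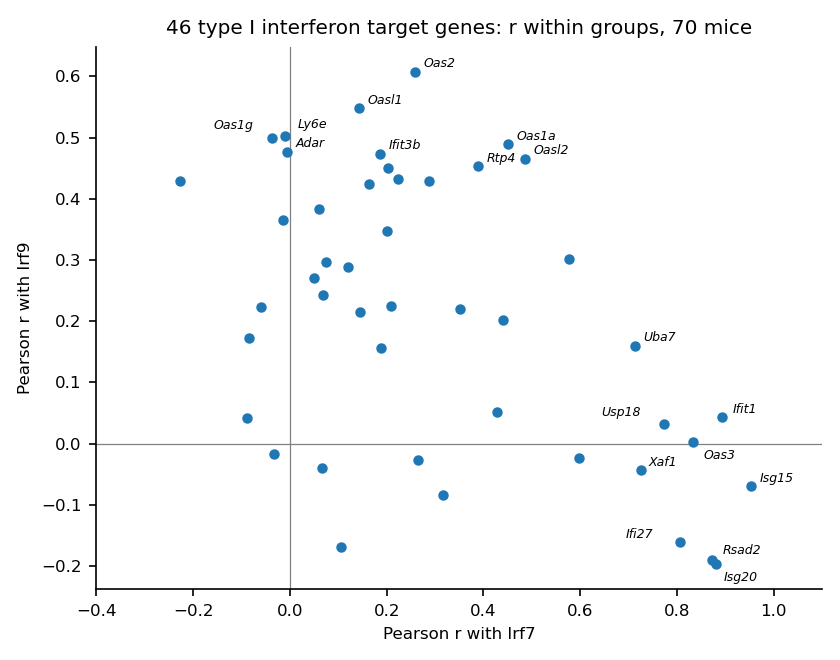
Pearson's r of each of 46 type I interferon targets with Irf7 (horizontal axis) and with Irf9 (vertical axis), over 70 mice after subtraction of group means. The 6 targets beyond 0.8 on the horizontal axis lie between -0.20 and 0.04 on the vertical one, and Oas2 is highest on the vertical axis at 0.61.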

How the data were processed

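The authors trimmed reads with Cutadapt, aligned them to mm39 with STAR, counted them with FeatureCount and deposited counts for 55416 genes and 71 mice. They also deposited vst values, a log2-like scale from DESeq2, for 10508 genes and 70 mice, after removal of non-coding and low genes. The strand setting, annotation and tool versions of the counting are not given in the sources used here.

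The vst values of the 2 groups compared were fitted with limma 3.58.1 in R 4.3.3, and FDRs cover all genes. The study also used limma on vst values, with these thresholds, but another version, and which groups entered a fit is not stated. Counts were tested with edgeR 4.0.16 (quasi-likelihood, TMM, genes with at least 10 counts in at least 11 mice, 15211 genes) and with DESeq2 1.42.0. The tests were tried on simulated data. Correlations used Python 3.11.15 with scipy 1.17.1. Totals of 11932855 to 15948972 counts per mouse limit precision for genes with few counts. P-values set a difference between groups, or a relation within a group, against the variation between mice of 1 experiment.

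Named genes were the 8 members, up to 4 genes per pathway list that were called in HOCl versus control or E07 versus HOCl with the largest fold changes, and the genes closest to each member. Other genes were named as examples of a list or for their r after their values were seen. The members and lists were chosen with earlier results of these data known. Alternatives were edgeR, DESeq2, RLE factors, no count filter, a 6-group fit, the FDR alone, a variance trend, log2 CPM with pseudocounts of 1 or 0.1, the erythroid covariate, the mouse number as a replicate block, and each mouse left out.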

Additional observations from a re-analysis of the deposited data

Results flagged for a closer look

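Of the differences between treated groups, 4 for members passed the test. For Irf7, the log2 difference of E07 from D11 mice was -0.81 (limma FDR 0.0232, 11 of 12 E07 mice below the D11 median). That call was lost in a fit of all 6 groups, which called 0 of 10508 genes in the pair. From D06 mice the difference was larger (-1.26, FDR 3.36e-05, 12 of 12 below the D06 median). In both pairs erythroid markers moved the same way, with 12 and 31 of 34 called lower in E07 mice. With the erythroid score as a covariate, the differences of Irf7 were -0.20 (FDR 0.683) and -0.34 (FDR 0.323), and the part of these cells was not tested.

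Irf5 (0.49, limma FDR 0.0175) and Irf8 (0.46, FDR 0.0288) were higher in E07 than in BPR21 mice, with 12 of 12 E07 mice above the BPR21 median for each. Neither was called without the 4 BPR21 mice of lowest B cell score.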

How the results depend on the processing

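Counts of called members in each of the 5 main comparisons, and pooled over the other 10 pairs, stayed within 1.5 times of limma's under edgeR, DESeq2, RLE factors and limma's variance trend. Within the 10 pairs, E07 versus D06 had 1 member called by limma and 2 by edgeR and by DESeq2. Over the 10 pairs, with 8 members in each, limma called 5, edgeR 7, and edgeR with no count filter 8. In D11 versus D06 each called 0 genes. E07 versus D06 had the most, 1026 of 10508 with limma, 1570 of 15211 with edgeR and 3202 of 26202 with no filter. With total-count scaling (log2 CPM), 8 members were called in E07 versus HOCl with either pseudocount, 8 (plus 1) or 7 (plus 0.1) in HOCl versus control, and 30 or 28 in the other 10 pairs. Of 10501 genes, 6882 (plus 1) or 6821 (plus 0.1) were then called in E07 versus HOCl and 5459 or 5096 in HOCl versus control. In the other 10 pairs the number of genes ran from 0 (D11 versus D06) to 7790 or 7722 (E07 versus D06). Irf2 then turned to 0.47 (plus 1) and 0.48 (plus 0.1) in E07 versus HOCl, and to -0.46 (plus 1) in HOCl versus control. With the erythroid covariate, the counts were 0 in HOCl versus control, 0 in E07 versus HOCl, 0 in the other 10 pairs and 1 (Irf5, -0.52) in BPR21 versus HOCl, and Irf7 turned to -0.18 in HOCl versus control. That fit called 232 of 10508 genes in BPR21 versus HOCl. The fit of all 6 groups called 1 member (Irf5, FDR 0.0290) in BPR21 versus HOCl, with 148 of 10508 genes called. The FDR alone called 2 members in E07 versus HOCl, with 1580 of 10508 genes called. It called 8 in the other 10 pairs, with up to 1627 genes called in a pair (E07 versus D06). The cause of these changes was not tested.

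When mouse numbers formed a replicate block, 0 members and 85 of 10508 genes were called in HOCl versus control (Irf7 0.93, FDR 0.0780). The block kept only mice whose number occurred in both groups. Same-numbered mice deviated together (r over 0.1) in 4 of 10 pairs there and in 2 or 3 of 11 pairs in the 4 comparisons with HOCl. Their mean r was 0.048 in HOCl versus control and between 0.010 and 0.056 in the others. Mice of different numbers had mean r between -0.0039 and 0.0005. These values cannot decide whether the numbers pair the mice, which the sources do not state. The block moved no other count by over 1.5 times.

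Leaving out each mouse in turn kept every count of the 5 comparisons with HOCl, from 0 to 1, and the FDR of Irf7 ran from 0.00286 to 0.0438 in HOCl versus control and from 3.21e-05 to 0.00147 in E07 versus HOCl. Chosen after the data were seen, the same was done for 4 further pairs. Irf7 in E07 versus BPR21 became called without E07 mouse 6 or BPR21 mouse 1, 2 or 4 (FDR 0.00923 to 0.0427). Over all 24 such fits its FDR ran up to 0.102. The calls of Irf7 in the 3 other pairs were kept. Irf4 had the fewest counts of the members, with as few as 32 in a BPR21 mouse.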
